A study of Mus musculus with 13 samples.

Results

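Gene expression in brain hemispheres was compared between R6/2 and wild type mice that had both received the same combination of 3 drugs. The comparison rests on 6 of the 13 arrays in the series, chosen by the genotype and treatment in their titles: 3 from treated R6/2 mice and 3 from treated wild type mice. The treatment combined tacrine at 2.7 mg/kg per day, started at 5 weeks of age, moclobemide at 10 mg/kg per day and creatine at 1% (w/v) in wet mash. The untreated arrays, 4 from R6/2 and 3 from wild type mice, enter below as a second genotype comparison without the drugs. The sample descriptions list the drugs for untreated samples too, so the titles alone set the groups. An age at harvest, 8 weeks, is given for 1 untreated wild type array only, and the labels give neither sex nor a batch. Whether the arrays come from separate animals is not stated. The p-values therefore reflect only how these arrays vary, which may be technical.

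The R6/2 mouse carries a fragment of the human huntingtin gene, its first exon with an expanded CAG repeat, and develops a movement disorder used as a model of Huntington's disease. The compared groups differ in this transgene and share all 3 drugs. Tacrine blocks the enzymes that break down acetylcholine. Moclobemide blocks monoamine oxidase A, which degrades serotonin and noradrenaline, and creatine is a store of high-energy phosphate. In Huntington's disease the projection neurons of the striatum are affected early. These cells use GABA, carry dopamine receptors and make enkephalin or dynorphin and substance P as peptide transmitters. Their activity drives calcium and cAMP signals that switch on immediate early genes, among them the Egr and Nr4a transcription factors.

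The arrays were Affymetrix MG-U74Av2, which read a gene with probe sets made of short oligonucleotides, and the deposited values are linear signals without a unit. With 2% of the values trimmed from either end, the array means lay between 100.047 and 100.128, and how the signals were scaled is not given in the sources used here. The median signal of the 6 treated arrays was 41.5 to 45.1. Correlations of log2 signals were 0.9525 to 0.9687 between arrays of one treated group and 0.9441 to 0.9608 between the groups. The description of treated R6/2 array 1 carries the lot number of untreated R6/2 array 4, while in the other 12 arrays the lot number equals the title's number. The pair correlated at 0.9565 and had the same value in 0.853% of gene probe sets. In all 66 control rows, at a tolerance of 0.05, untreated R6/2 array 2 held 1.2 times the value of treated R6/2 array 1. Untreated R6/2 array 3 likewise held 1.2 times the value of treated R6/2 array 3. The definition of the comparison left the control rows out. Of the marker lists used to check the tissue, 22 of 22 pan-neuronal genes with a probe set passed the filter on dim signals and 0 of 4 liver genes did.

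Treated R6/2 mice had lower signals than treated wild type mice at 53 probe sets and higher signals at 6, of 7453 tested. These were the calls at an adjusted p under 0.05 (limma, Benjamini-Hochberg), 0.711% and 0.0805% of the probe sets tested. Of the called probe sets, 54 were annotated to 1 gene and covered 50 genes, 44 lower and 6 higher. The falls included the striatal peptide gene Penk, the early transcription factors Egr2, Egr1 and Nr4a1, the clock genes Dbp, Bhlhe40 and Per1, and the neuropeptide genes Sst, Cck and Oxt. The rises were Tyms-ps, Atad2b, Sin3b, Polr2a, Ifitm3 and Nfya. The falls were at least 2-fold at 22 probe sets and the rises at 1. In none of the 59 did the 3 R6/2 signals overlap the 3 wild type signals. The calls were picked by p from these same signals, which all but fixes this, so it adds no support. Over all probe sets tested the groups did not overlap in 8.17% with R6/2 lower and 8.63% with R6/2 higher. Over all probe sets tested, 43.9% of the log2 differences were below 0 and their median was 0.03. The 5th and 95th percentiles were −0.45 and 0.43. Before adjustment, 685 probe sets had p under 0.05, 310 higher and 375 lower. The count of calls moved with the arrays that shared the estimate of spread, to 111 without the 4 untreated R6/2 arrays and 119 without untreated R6/2 arrays 2 and 3. Without treated R6/2 array 1, which leaves 2 arrays against 3 in the comparison itself, it was 20.

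**Figure D1:**
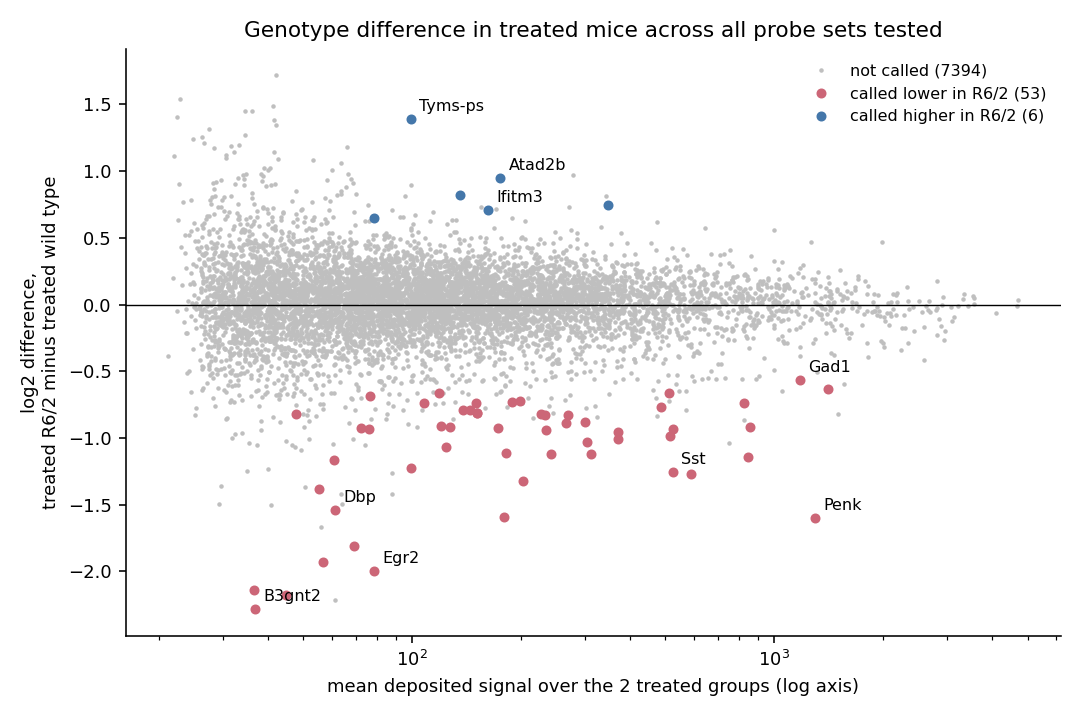
Log2 difference, treated R6/2 minus treated wild type, against the mean deposited signal of the 2 treated groups (log axis), 1 point for each of 7453 probe sets. The 53 probe sets called lower span the range of signals down to −2.28, and the 6 called higher reach 1.39.

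The 300-base windows around the start sites of the genes that fell were searched for 7 short sequences bound by transcription factors, most of them of the activity and clock pathways, and 5 stretches are printed because they hold matches in genes described below. They are RefSeq promoter sequences (GRCm38.p6), each of 120 bases before the first listed start, written 5′ to 3′ of the gene with the matched letters in capitals. The capitals mark the cAMP response element in Sst, Dusp1 and Dio2, the clock E-box in Per1 and, read on the opposite strand, an EGR site in Nr4a1.
Sst, chr16:23890845-23890964, minus strand: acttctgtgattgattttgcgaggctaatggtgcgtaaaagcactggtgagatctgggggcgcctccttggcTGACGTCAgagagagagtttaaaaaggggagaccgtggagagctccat
Dusp1, chr17:26508553-26508672, minus strand: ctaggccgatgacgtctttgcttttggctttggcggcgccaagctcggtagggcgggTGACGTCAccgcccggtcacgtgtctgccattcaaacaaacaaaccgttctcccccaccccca
Dio2, chr12:90739069-90739188, minus strand: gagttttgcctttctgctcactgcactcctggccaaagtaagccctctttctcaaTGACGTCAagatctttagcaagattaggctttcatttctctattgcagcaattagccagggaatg
Per1, chr11:69098729-69098848, plus strand: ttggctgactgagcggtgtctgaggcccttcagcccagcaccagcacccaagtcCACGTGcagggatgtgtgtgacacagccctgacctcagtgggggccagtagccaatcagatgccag
Nr4a1, chr15:101266726-101266845, plus strand: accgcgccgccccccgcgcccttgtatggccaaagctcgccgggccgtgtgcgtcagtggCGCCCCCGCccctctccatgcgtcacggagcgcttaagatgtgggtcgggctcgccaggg

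Of the 44 genes that fell, 35 had a promoter in the RefSeq table, and Penk was among those that had none and were not searched. Each motif was counted on both strands in the window of the first listed start, 250 bases before to 50 after it. The cAMP response element TGACGTCA, bound by CREB, was found in 3 of 35 (8.57%), against 1.88% of all 27025 promoters. The shorter element TGACG, which lies within the whole element, was found in 11 (31.4%), against 21.0%. The clock E-box CACGTG was found in 5 (14.3%, in Cck, Dusp1, Egr2, Per1 and Prkcd), against 7.24%. The EGR site GCGGGGGCG was found in 6 (17.1%, in B3gnt2, Baiap2, Gad1, Nlk, Nr4a1 and Olfm1), against 2.92%. The CCAAT box, bound by NF-Y, was found in 12 (34.3%), against 37.9%. The D-box TTATGTAA (0.955% of all promoters) and the CArG box of serum response factor (1.57%) were found in none of the 35. Of the 6 genes that rose, 5 had a promoter there, 1 with the whole cAMP response element (Atad2b) and 3 with the shorter one, and none held the other motifs. After these matches had been seen, a second count took any listed start of a gene, for the genes that fell and for all promoters alike. It gave 3 for the cAMP response element (2.03% of all), 13 for the shorter element (23%), 8 for the E-box (8.09%), 7 for the EGR site (3.31%), 13 for the CCAAT box (41.1%), 0 for the D-box (1.11%) and 1 for the CArG box (1.81%). These are counts of letters in the windows, not of bound sites, and no test was made of them. The shares beside them are of all RefSeq promoters, whereas the genes that fell were on the array and passed the filter on dim signals. Shares among the genes that passed the filter were not counted.

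Of the genes listed for striatal projection neurons, Penk, Arpp19, Hpca, Ptpn5, Drd2 and Rasgrp2 fell in the treated R6/2 mice. Whether each listed gene, Arpp19 and Hpca among them, is specific to these cells was not tested. The list held 30 genes, of which 15 had a probe set of their own and 11 passed the filter on dim signals. Of the 11, 6 fell, none rose, and all 11 log2 differences were below 0, with a median of −0.83 against 0.03 over all probe sets. This list, like those below, was chosen with earlier results of these data known. Its counts and median are therefore a description and no independent support. Penk (chromosome 4, 4133536 to 4138815, GRCm38.p6), which encodes the precursor of enkephalin, had signals of 1978.9, 1801.2 and 2076.5 in the treated wild type arrays and 654.5, 602.5 and 674.9 in the treated R6/2 arrays. All 3 R6/2 signals lay far below the lowest wild type signal. The log2 difference was −1.60 ± 0.15 (SE), a 3.03-fold fall, with an adjusted p of 0.000165 (limma). The name of this Penk probe set marks it as possibly shared with related sequences. A dimmer probe set of Penk read 79.7, 72.6 and 117.0 against 16.9, 30.4 and 23.7, a log2 difference of −1.93.

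Drd2, the dopamine D2 receptor of the enkephalin-making cells, read 107.6, 101.4 and 88.9 in wild type and 57.8, 48.5 and 49.8 in R6/2 mice. The log2 difference was −0.93 ± 0.18 (SE), with an adjusted p of 0.0191 (limma). Ptpn5, the striatal phosphatase STEP, read 303.4, 294.2 and 288.2 against 143.2, 219.2 and 145.8, and R6/2 array 2 was the highest of its group. Hpca, the calcium sensor hippocalcin, fell by 0.92 on the log2 scale, and Rasgrp2, a calcium-dependent activator of Rap, by 1.07. Arpp19, a phosphoprotein regulated by cAMP-dependent kinase, read 233.7, 297.4 and 275.8 against 82.8, 114.3 and 73.6, a log2 difference of −1.59. Its second probe set differed by −0.24 with an adjusted p of 0.845 (limma), so the probe sets of Arpp19 disagree in size. The members that were not called had log2 differences of −0.79 (Pde1b, a calcium-dependent phosphodiesterase), −0.77 (Tac1, the substance P precursor), −0.67 (Strn), −0.41 (Pdyn, the dynorphin precursor) and −0.23 (Foxp1). The summed signal of the 11 genes was 4950 to 5411 in the wild type arrays and 2334 to 2581 in the R6/2 arrays. In samples of a whole hemisphere, fewer cells of a type and less RNA per cell cannot be told apart.

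**Figure D2:**
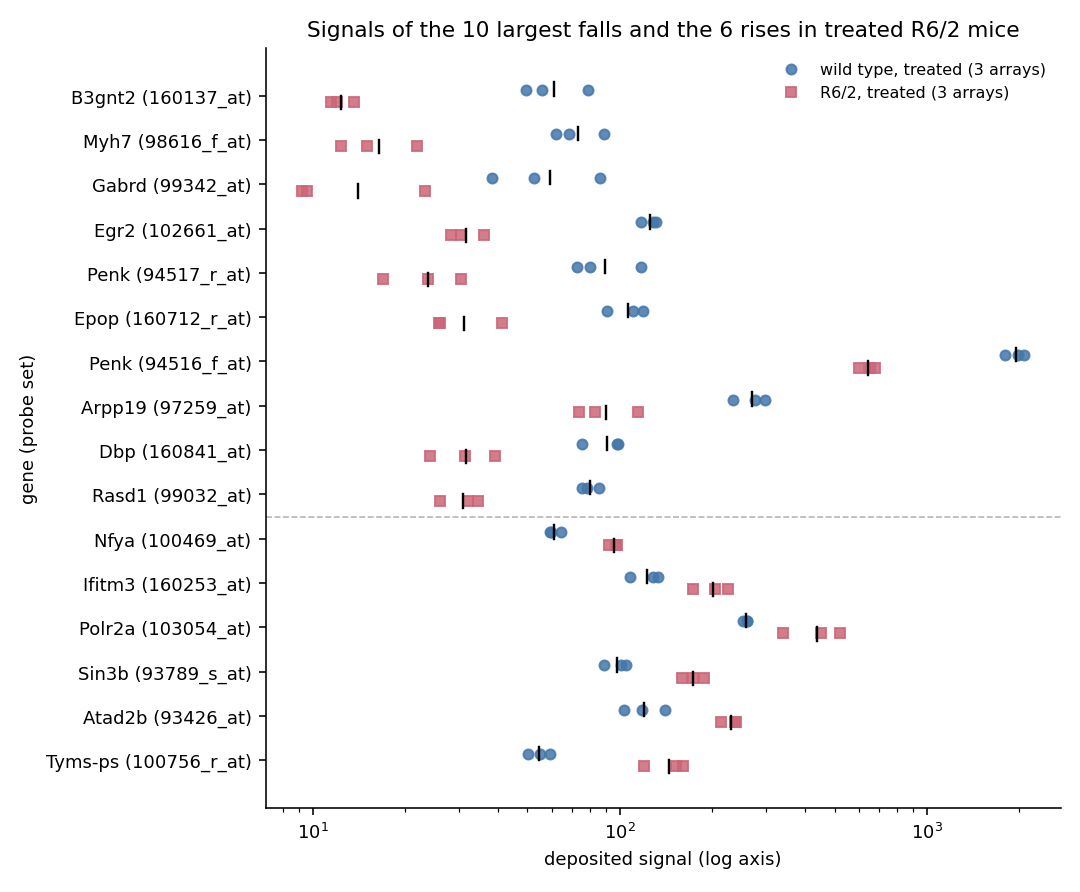
Deposited signal (log axis) in each of the 6 treated arrays for the 10 largest falls, above the dashed line, and the 6 rises below it. Circles are wild type arrays, squares are R6/2 arrays and black ticks are group means. In no gene shown do the groups overlap, which the choice of called genes favours.

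Immediate early transcription factors, which neurons switch on soon after stimulation, included Egr2, Egr1 and Nr4a1 among the falls. Of 24 genes in the list 15 passed the filter, 3 fell, none rose, and 14 differences were below 0, with a median of −0.39. Egr2 read 130.7, 117.3 and 127.8 in wild type and 28.1, 36.0 and 30.4 in R6/2 mice. All 3 R6/2 signals lay far below the wild type ones, with a log2 difference of −1.998 ± 0.205 (SE), a 3.99-fold fall, and an adjusted p of 0.000331 (limma). Egr1 read 721.2, 670.3 and 661.4 against 333.3, 452.1 and 304.7. Nr4a1, an orphan nuclear receptor, read 323.8, 253.0 and 347.9 against 150.0, 163.6 and 163.8. The log2 differences were −0.93 for Egr1 and −0.94 for Nr4a1, and in neither did the groups overlap. Junb, a partner of Fos in the AP-1 complex, differed by −0.58 with an adjusted p of 0.214 (limma) and was not called, and Fos itself differed by −0.52.

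Among genes that act downstream of such stimulation, 2 of 16 fell, none rose, and the median was −0.36. Both encode phosphatases that switch off MAP kinases. Dusp1 read 593.3, 416.8 and 453.8 in wild type and 255.9, 256.6 and 235.5 in R6/2 mice, and Dusp6 read 398.2, 314.3 and 323.8 against 210.5, 193.0 and 179.1. The uncalled members with the smallest p were Rgs2, a regulator of G protein signalling, at −0.86 (adjusted p 0.0623, limma) and Plk2, a kinase of active synapses, at −0.56 (adjusted p 0.121). Klf10, a zinc finger factor in none of these lists, fell on both its kept probe sets, by 1.16 and 0.92 on the log2 scale. Rasd1, a small G protein induced by dexamethasone, read 78.3, 75.3 and 85.8 against 32.1, 25.9 and 34.6, a log2 difference of −1.38.

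Of 18 clock genes that passed the filter 3 fell, none rose, and the median was −0.11. The log2 differences were below 0 in 11 of them and above 0 in 7, up to 0.63. Dbp, an output factor of the clock, read 97.9, 75.4 and 98.8 in wild type and 24.1, 39.3 and 31.3 in R6/2 mice. Bhlhe40, a repressor that acts on E-boxes, read 324.9, 294.9 and 247.1 against 108.2, 129.3 and 108.0. Per1, a core repressor, read 229.8, 236.1 and 280.7 against 110.3, 124.1 and 110.3. The log2 differences were −1.54, −1.32 and −1.11. Per2 differed by −1.05 and its groups did not overlap, with an adjusted p of 0.135 (limma), so it was not called. The labels give no hour of harvest.

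Neuropeptide genes formed the list with the lowest median after the striatal and the thalamic and hypothalamic genes. Of 19 that passed the filter, 3 fell, none rose, 18 differences were below 0, and the median was −0.60. Sst, which encodes somatostatin of a class of interneurons, read 738.1, 658.5 and 825.6 in wild type and 352.3, 265.2 and 315.4 in R6/2 mice, a log2 difference of −1.26 ± 0.21 (SE). Cck, the cholecystokinin gene, read 1059.8, 898.0 and 1140.1 against 554.2, 679.7 and 617.7. Oxt, which encodes oxytocin of the hypothalamus, read 181.1, 186.3 and 209.0 against 114.6, 103.2 and 110.1. Hcrt, the orexin gene of the lateral hypothalamus, differed by −1.26 with an adjusted p of 0.0572 (limma) and was not called. The genes of thalamus and hypothalamus, of which Prkcd and Oxt fell, had a median of −0.71 over 7 genes, and their summed signal was 1530 to 1616 in the wild type and 1088 to 1315 in the R6/2 arrays. Those of cortex and hippocampus, of which Wfs1 fell, had a median of −0.51 over 7 genes, with sums of 1764 to 2236 and 1210 to 1542. The part of dissection, or of the share of each region in a sample, in these falls was not tested.

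Among neuronal signalling genes outside the striatal list, Prkcd, Prkcb, Gabrd and Gad1 fell. Of 24 genes of calcium signalling 2 fell, none rose, 22 differences were below 0, and the median was −0.29. Prkcd, a protein kinase C abundant in thalamus, read 320.9, 314.6 and 359.8 against 160.8, 142.3 and 154.4 on one probe set, and fell by 1.03 on the log2 scale on the other. Prkcb, another protein kinase C, fell by 0.72 and 0.63 on its probe sets. Of 12 genes of GABA synthesis and reception 2 fell, with a median of −0.06. Gabrd, the delta subunit of the GABA-A receptor, read 86.3, 52.7 and 38.4 against 9.6, 23.2 and 9.2, a low signal with the widest error of the falls (log2 difference −2.14 ± 0.46, SE). Gad1, which makes GABA from glutamate, read 1454.2, 1433.5 and 1327.7 against 891.8, 972.2 and 990.4, the smallest called difference at −0.56 ± 0.11 (SE). Among glutamate receptors and their scaffolds 0 of 11 were called in either direction, with a median of −0.11. Of 22 pan-neuronal genes 0 were called, with a median of −0.12. As 0.711% of all probe sets were called lower and 0.0805% higher, the lack of calls in lists this short says little. The groups did not overlap, with R6/2 lower, in 3 of the 11 and 6 of the 22, against 8.17% of all probe sets. With R6/2 higher it was 0 of the 11 and 1 of the 22, against 8.63%. The summed pan-neuronal signal was 17500 to 19330 in the wild type and 16360 to 18360 in the R6/2 arrays, ranges that overlap.

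Further genes fell outside the groups above or as the one called member of a list. B3gnt2, an enzyme that extends sugar chains, had the largest difference of all called probe sets, reading 55.8, 49.4 and 78.5 against 11.5, 12 and 13.6 (log2 −2.28). Its second probe set differed by −0.51 with an adjusted p of 0.803 (limma). Myh7, a heavy chain of slow muscle myosin, read 68.3, 62.1 and 88.7 against 12.4, 21.8 and 15.0 on a probe set whose name marks it as possibly shared with related sequences. The treated R6/2 signals of B3gnt2 and Myh7, like those of Gabrd, all lay below the filter's 24.9. That filter used the mean over all 13 arrays, which the brighter wild type signals raised. The sizes of these differences therefore rest on dim values. Epop, a partner of the polycomb complex, read 118.9, 110.1 and 90.8 against 26.0, 25.7 and 41.2. Kalrn, a guanine exchange factor of dendritic spines, read 922.0, 706.3 and 873.0 against 306.2, 397.1 and 332.1, a log2 difference of −1.27. Dio2, the enzyme that activates thyroid hormone in astrocytes, read 131.9, 145.6 and 137.5 against 45.2, 72.4 and 62.8. Rgs14 and Rgs16, regulators of G protein signalling, fell by 1.12 and 0.79 on the log2 scale, and the receptor kinase Tyro3 by 1.01. Cox6a2, the muscle form of a cytochrome oxidase subunit, read 99.8, 89.6 and 93.4 against 44.6, 52.7 and 51.6. It was the one gene called of 54 in the oxidative phosphorylation list, whose median was −0.02. Wfs1, a protein of the endoplasmic reticulum, was the one called of 16 in the list of folding genes there, with −0.82 and a list median of −0.19. Sgk1, a kinase induced by glucocorticoids, was the one called of 12 in its list, with −0.77 and a list median of −0.31. Of these 12, 11 differences were below 0, and in 10 all R6/2 signals lay below the wild type ones. Over all probe sets tested, 8.17% did so. The summed signal of the 12 genes was 4399 to 4857 in the wild type and 3419 to 3478 in the R6/2 arrays.

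The 6 genes that rose had log2 differences of 0.65 to 1.39. Tyms-ps, a thymidylate synthase pseudogene, read 50.1, 55.0 and 59.0 in wild type and 152.7, 160.4 and 119.6 in R6/2 mice, a log2 difference of 1.39 ± 0.23 (SE). Its probe set can share signal with the parent gene. Atad2b, a chromatin-binding ATPase, read 117.9, 139.8 and 103.1 against 213.2, 239.4 and 237.5, with an adjusted p of 0.00348 (limma). All 3 R6/2 signals lay above the highest wild type signal. Sin3b, a scaffold of histone deacetylase complexes, read 100.6, 104.4 and 89.1 against 173.1, 188.3 and 159.2, while its second probe set differed by 0.03. Polr2a, the large subunit of RNA polymerase II, read 259.5, 259.1 and 252.6 against 522.5, 340.9 and 452.9, and its second, brighter probe set differed by 0.42 without being called. Ifitm3, an interferon-induced membrane protein, read 108.1, 132.6 and 127.9 against 225.3, 173.2 and 204.3. It was the one called of 14 interferon and class I genes, whose median was 0.41, the highest of the lists. Nfya, a subunit of the CCAAT-binding factor NF-Y, read 59.3, 59.6 and 64.2 against 98.0, 92.4 and 97.0. With Sin3b it made 2 of 25 transcription regulators that rose, and none of that list fell. Nfyc, another NF-Y subunit, differed by 0.50 with an adjusted p of 0.0794 (limma).

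The next genes by p among those with higher signals were not called. Csf2ra, a cytokine receptor subunit, read 55.3, 33.8 and 46.4 in wild type and 83.1, 78.2 and 73.7 in R6/2 mice (adjusted p 0.0540, limma). Mcm5, a subunit of the replication helicase, read 29.7, 33.2 and 12.3 against 59.4, 50.6 and 66.6 (adjusted p 0.0557, limma). Snx12, a sorting nexin, read 73.3, 64.8 and 69.2 against 119.8, 130.0 and 114.0 (adjusted p 0.0572, limma). Thrb, a thyroid hormone receptor, read 11.5, 12.4 and 10.7 against 26.5, 35.6 and 39.8 (adjusted p 0.0651, limma). Its treated wild type signals all lay below the filter's 24.9. Without treatment Thrb read 42.0, 46.7 and 43.2 in wild type and 30.1, 35.8, 14.1 and 51.3 in R6/2 mice, a log2 difference of −0.56. Its interaction did not pass adjustment (adjusted p 0.305, limma). In Csf2ra, Mcm5, Snx12 and Thrb, which were chosen by p, the treated groups did not overlap.

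The measured drug targets and creatine genes were not called in either direction. Ache, the acetylcholinesterase that tacrine inhibits, read 216.7, 308.2 and 315.0 in wild type and 326.1, 301.7 and 276.6 in R6/2 mice, and the groups overlapped. Its relative Bche was below the filter on dim signals. Maoa, the oxidase that moclobemide inhibits, read 124.1, 108.9 and 84.4 against 156.2, 121.4 and 116.9, with a log2 difference of 0.32 ± 0.18 (SE). Maob had no probe set of its own. All 6 genes of creatine handling that passed the filter had log2 differences below 0, with a median of −0.37, and none was called. Ckmt1, a mitochondrial creatine kinase, read 258.8, 258.7 and 265.4 against 176.0, 198.0 and 160.5, a log2 difference of −0.56 with an adjusted p of 0.15 (limma), while a dim second probe set differed by 0.04. Ckb, the brain creatine kinase, differed by −0.41, the transporter Slc6a8 by −0.35, and the synthesis enzymes Gatm and Gamt by −0.21 and −0.03. A second probe set of Gamt differed by −0.05. Mouse Htt, the endogenous huntingtin gene, differed by 0.01 on its brighter probe set and by 0.36 on the other, neither called.

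None of the genes in the lists that follow was called in either direction. Over all probe sets tested 0.711% were called lower and 0.0805% higher, so the lack of calls in short lists says little. Of 11 myelin genes 9 had log2 differences below 0, with a median of −0.49. Mal, a proteolipid of myelin, differed by −0.81 with an adjusted p of 0.0503 (limma), and Mobp by −0.87 with 0.0577. The summed myelin signal was 5884 to 7145 in the wild type and 3999 to 5402 in the R6/2 arrays. Of 15 sterol synthesis genes 14 were below 0, with a median of −0.44, and Fdps, an enzyme of the isoprenoid branch point, differed by −0.70 with an adjusted p of 0.0702 (limma). The medians were −0.16 for 15 astrocyte genes, 0.02 for 10 microglia genes, −0.06 for 17 glycolysis genes, 0.09 for 29 chaperones, 0.07 for 32 proteasome genes, −0.05 for 13 monoamine genes, 0.12 for 3 cholinergic genes and −0.16 for 14 lipid transport genes. Lists of neighbouring tissue had medians of 0.24 for 3 blood genes, 0.20 for 12 vessel genes, 0.27 for 5 choroid plexus genes, 0.21 for 5 pituitary genes and −0.07 for 8 cerebellar genes, again with no calls. Summed blood signal was 995.2 to 1650 in the wild type and 927.5 to 2146 in the R6/2 arrays. Among 4 sex-linked genes the median was 0.18, and Xist and Eif2s3x overlapped between the groups. Ddx3x and Kdm6a did not overlap and had higher signals in R6/2 mice, with log2 differences of 0.31 and 0.31, neither called. Over all probe sets tested 8.63% did not overlap in that direction. Whether the groups match in sex was not tested.

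**Figure D3:**
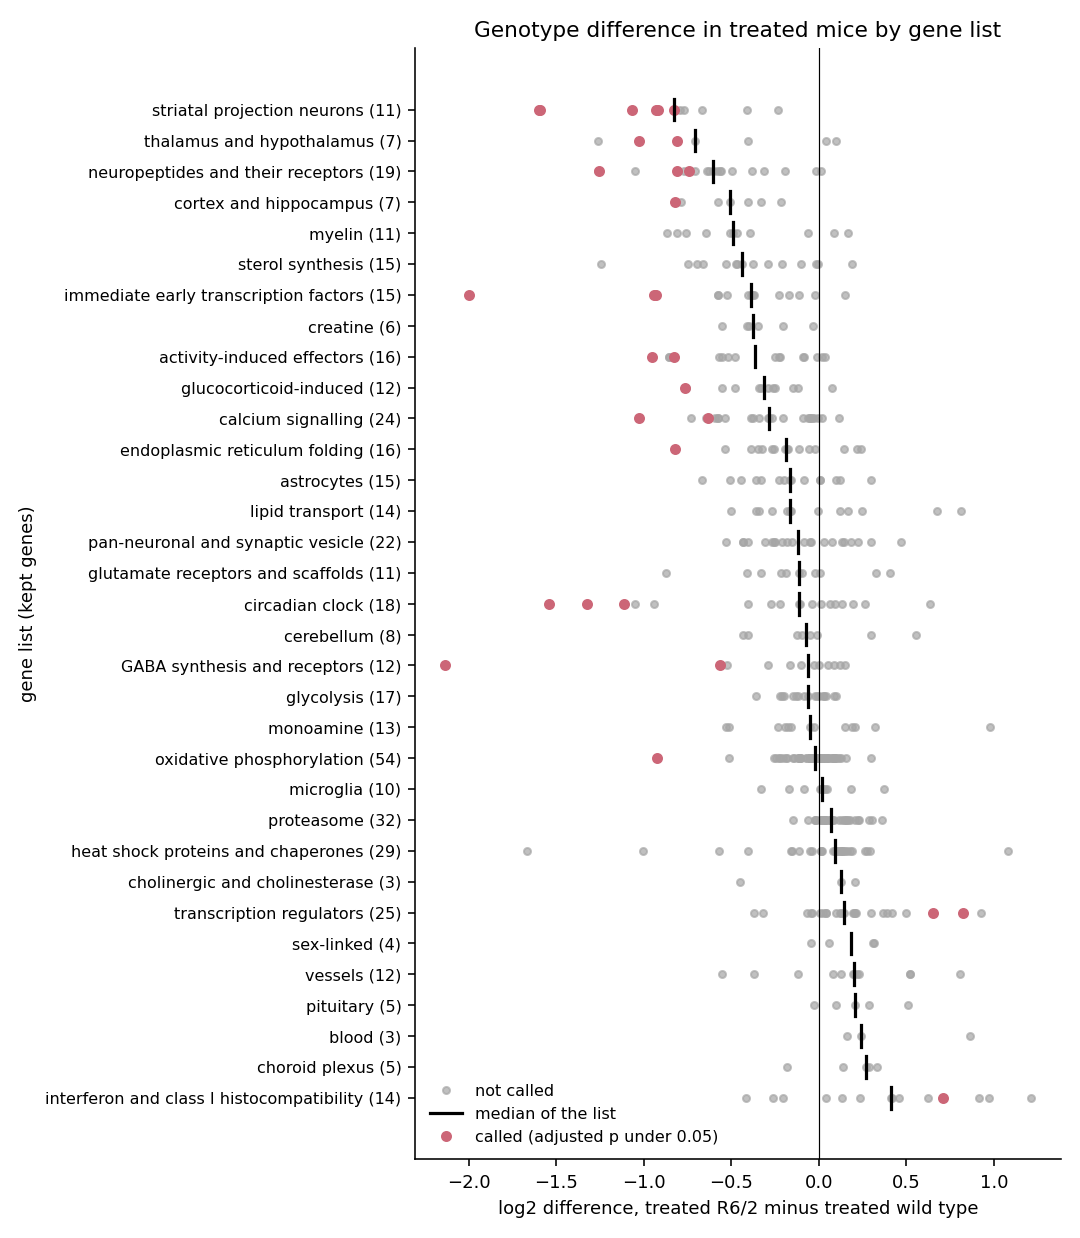
Log2 difference, treated R6/2 minus treated wild type, of every kept gene in 33 lists (number of genes in brackets), with the list median as a black bar and called genes in red. The striatal list has the lowest median, −0.83, and the interferon and class I list the highest, 0.41. The lists were chosen with earlier results of these data known.

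The same genotype contrast in untreated mice was set beside these values. It uses other arrays, although all share one estimate of the spread. Of the 53 probe sets lower in treated R6/2 mice, 52 were also lower on average in untreated R6/2 mice, 44 were called there and 44 had groups that did not overlap. Over all probe sets tested, 6.41% were called lower in untreated R6/2 mice and 12.3% did not overlap in that direction. Of the 6 higher probe sets all 6 were higher on average, 3 were called and 5 did not overlap, against 5.49% and 13.9% of all. The median log2 difference of the lower probe sets was −0.93 in treated and −0.83 in untreated mice, and that of the higher ones 0.79 and 0.56. These probe sets were chosen on the treated contrast, which favours larger treated differences. The medians therefore cannot show that the genotype difference was larger with treatment. Egr2 differed by −1.998 and −1.96 and Arpp19 by −1.59 and −1.56, while Sst differed by −1.26 and −1.68.

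The difference between the genotype contrasts was tested directly as the interaction of genotype and treatment. It was called at 0 of 7453 probe sets (0.0%, limma), the smallest adjusted p was 0.305, and 1003 probe sets had an unadjusted p under 0.05. Among the called probe sets, 10 of the lower and 2 of the higher had an unadjusted interaction p under 0.05. Il18, an inflammatory cytokine, read 59.8, 61.2 and 61.1 in treated wild type and 35.6, 32.9 and 34.8 in treated R6/2 mice. Without treatment it read 46.6, 53.9 and 52.1 in wild type and 48.5, 59.2, 66.1 and 44.1 in R6/2 mice, and these groups overlapped. Its log2 difference was −0.82 with and 0.08 without treatment. Gad1 differed by −0.56 with and −0.09 without treatment, Ptpn5 by −0.83 and −0.21, Dio2 by −1.23 and −0.39, and Tyms-ps by 1.39 and 0.33. Cox6a2 went the other way, with −0.93 with and −1.52 without treatment (unadjusted interaction p 0.0166, limma). For none of these genes did the interaction pass adjustment, so a difference between treated and untreated mice was not shown.

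**Figure D4:**
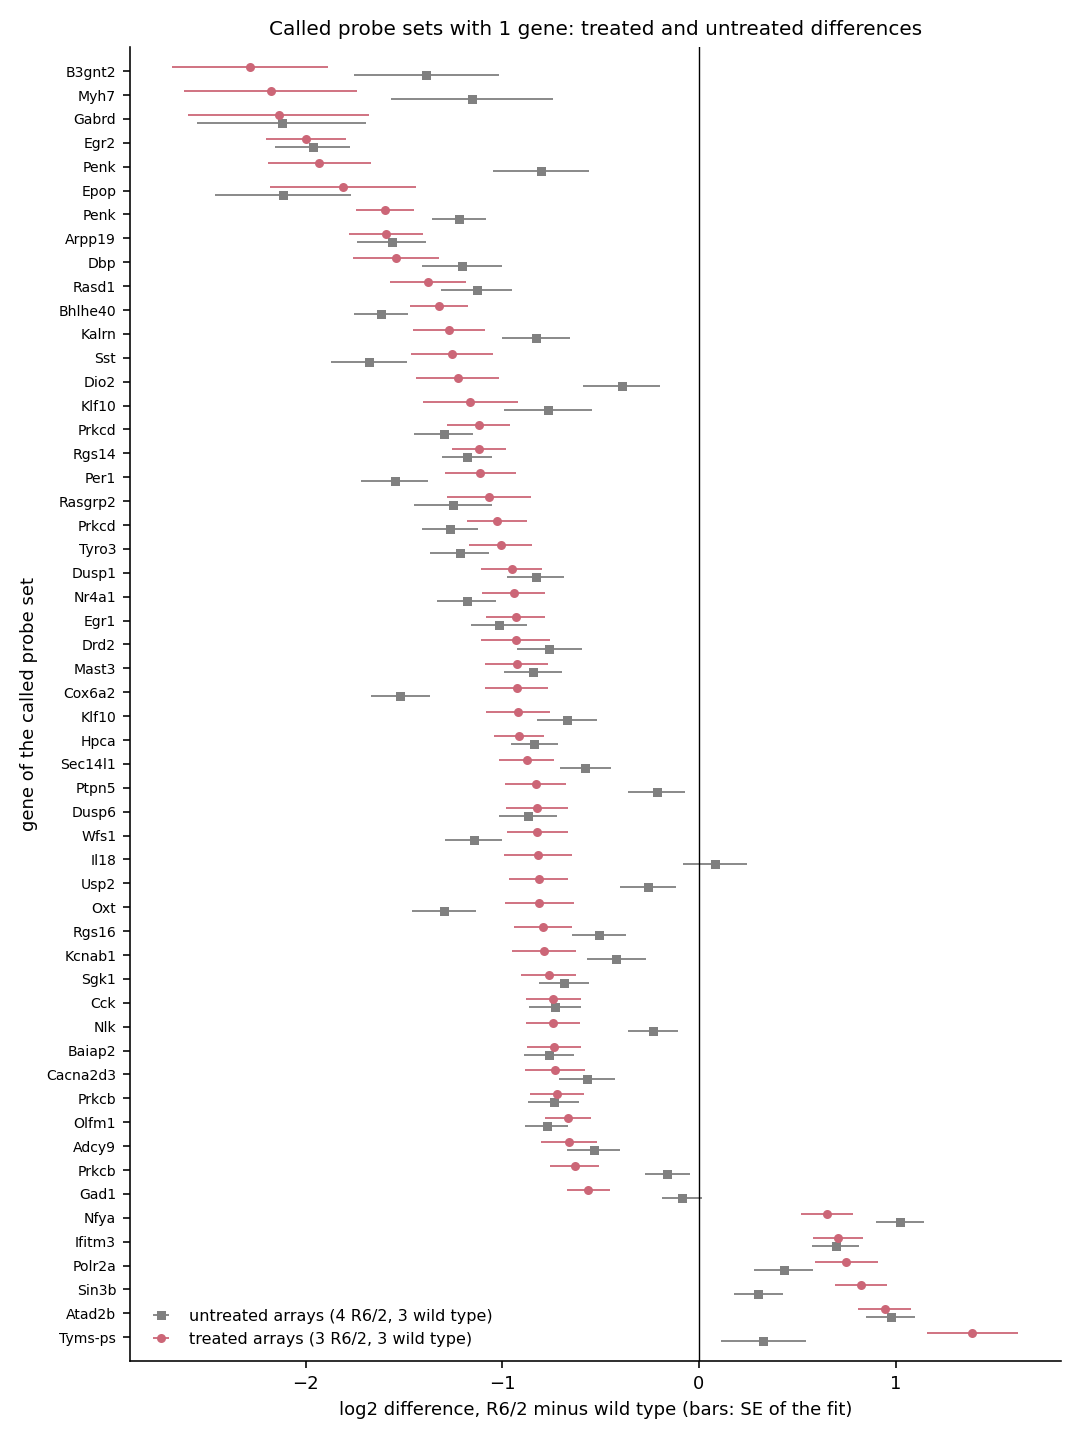
Log2 difference, R6/2 minus wild type, in treated arrays (circles) and untreated arrays (squares) for the 54 called probe sets with 1 gene, with bars of 1 SE from the fit. Egr2 lies at −1.998 and −1.96, and Il18 is the one lower gene whose untreated value, 0.08, is above 0.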

How the data were processed

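Members were the 6 arrays whose titles name the drugs, and the gene lists and tests were chosen with earlier results of these data known. The authors deposited linear intensities; the software and scaling behind them are not given in the sources used here, and they were not normalized further. Signals under 3.1 (the 10th percentile) were set to 3.1 and log2 was taken. The 66 control rows were left out, and of 12422 gene probe sets the 7453 with a mean signal of at least 24.9 (the 40th percentile) were kept. Annotation gave 1 gene for 10833 probe sets, several for 396 and none for 1193. A mean per group was fitted to all 13 arrays with limma 3.58.1 in R 4.3.3, with moderated variances that follow intensity, and p-values were adjusted by Benjamini-Hochberg over the kept probe sets (threshold 0.05). The code was tested on simulated data. A list's gene was read on its brightest probe set. Of 715 genes in 34 lists, 557 had a probe set of their own and 471 were kept. Eligible to be named were the called genes, with all values for the 10 largest changes each way (uncalled rises with the smallest p made up the number). Up to 4 members of each list by p, the drug targets, creatine genes and Htt were eligible too. Not all were described: Sec14l1, Mast3, Usp2, Cacna2d3, Adcy9 and Kcnab1, all called lower in treated R6/2 mice, were left out above. Baiap2, Olfm1 and Nlk, also called lower, were named above only for a promoter match. Promoter stretches were picked after the matches were seen. Alternatives changed the filter, floor, normalization, arrays in the fit, weights and moderation. Arrays carry no depth, and their number limits the precision.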

Additional observations from a re-analysis of the deposited data

Results flagged for a closer look

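In 4 of the 54 called probe sets with 1 gene, 1 of the 4 untreated R6/2 arrays stood apart from the others by Dixon's criterion at the 95% level, and chance flags about 1 in 20 groups. These were the lowest signals of Rgs14 (146.6), of Tyro3 (144.2) and of Klf10 (67.4), and the highest of Kcnab1 (163.9). These arrays also enter the estimate of spread shared with the treated comparison.

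In 4 named probe sets, none of them called, every treated R6/2 array lay on one side of the wild type arrays and every untreated R6/2 array on the other. The log2 interaction was −0.70 for Hspa5, a chaperone of the endoplasmic reticulum, 0.76 for the proteasome subunit Psmb5, 0.55 for the lipid transporter Abca2 and 0.86 for the dimmer probe set of Htt. The unadjusted interaction p was 0.00145, 0.0027, 0.0109 and 0.0113 (limma), and no adjusted p was under 0.305. Over all probe sets tested, 61 showed such opposite sides.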

How the results depend on the processing

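No paired analysis was possible because the labels give no number that pairs arrays across groups. Against 59 calls (6 higher, 53 lower), leaving the untreated R6/2 arrays out of the fit gave 111 (19 and 92), leaving out untreated R6/2 arrays 2 and 3 gave 119 (23 and 96), and array weights gave 208 (50 and 158). Each of these 3 settings kept all 59. Without a filter 16 probe sets were called higher. Leaving out 1 treated array at a time gave 20 to 49 calls, 3 to 10 higher and 17 to 44 lower, and 19 to 40 of the 59 were kept. The other settings gave counts within 1.5 times the main ones, and the interaction stayed at 0 calls wherever it could be fitted. Of the 54 called probe sets with 1 gene, 43 could be run in 18 alternatives and 11 in 17, being below the stricter filter. None changed sign in those run, 12 were called in 18 of 18, 4 in 17 of 17, and 41 in at least 12. The median of all differences moved between 0.02 and 0.04. Among the 108 named but uncalled probe sets, 31 were called under at least 1 alternative, among them Mal in 8 of 18, Hcrt in 7, Mobp and Zbtb16 in 6, and Rgs2 and Snx12 in 5. Of the 108, 14 changed sign somewhere; the cause was not tested. Over the fits without 1 treated array, the log2 difference ranged from −0.11 to 0.39 for Chrna7, −0.051 to 0.22 for Ache, −0.32 to 0.019 for Tyrobp, −0.042 to 0.66 for Hba-a1, −0.031 to 0.52 for Hbb-b2, −0.19 to 0.39 for Kl, −0.073 to 0.91 for Pomc, −0.36 to 0.70 for Cga, −0.011 to 0.10 for Eif2s3x, −0.18 to 0.13 for Xist, −0.14 to 0.32 for the dim Ckmt1 probe set, −0.16 to 0.073 and −0.10 to 0.098 for those of Gamt, and −0.10 to 0.11 for the brighter Htt set. Array weights gave −0.13 for Kl, 0.10 for Xist and 0.032 for the brighter Gamt set, and median centring gave −0.0075 for Htt. Counting any listed start, added after the promoter matches were seen, moved the E-box count from 5 to 8 and the CArG count from 0 to 1. Signals near the floor of 3.1 limit what can be seen in dim genes.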
